A study of Mus musculus with 22 samples.

Results

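The genes described here are the cytokines of the interleukin-1 family, their receptors, and Il6, measured in sorted cells of a mouse lung tumour line with and without an antibody, and in normal lung. The 10 genes listed were Il1f5 (also named Il36rn), Il1a, Il1b, Il1rn, Il18, Il33, Il1r1, Il1rl1, Il1rap and Il6. Probe sets were listed for 9 of these, and Il1rl1 was not analysed here. Together they had 17 probe sets (groups of short probes that read 1 transcript), among 18193 genes with a probe set of their own. The list was chosen by the measured values of Il1f5, which differed sharply between antibody-treated and untreated cells. The values of Il1f5 in the cells are therefore given as a description with no test, and counts of cell comparisons cover the other 15 probe sets, of 8 genes.

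Messenger RNA was measured on 22 Affymetrix arrays. A2C12 is a line grown from a lung tumour of mice that carried c-myc and c-raf transgenes on a C57BL/6 background. Its side population, the cells that pump out the DNA dye Hoechst, was sorted by flow cytometry. There were 3 samples of untreated side population cells, and 3 samples sorted after 48 h with a monoclonal antibody against mouse EpCAM, an adhesion protein of epithelial cells, at 100 µg/ml. The cells of both groups carry the same transgenes and come from a single line, so the spread between samples is that of preparations and not of tumours. Whole lung came from C57BL/6 mice without transgenes, with 1 animal per sample, 8 males and 8 females by their labels, and no age was given in the sources used here. The labels call all samples biological replicates. Cells without the sort, a control antibody and non-tumour epithelial cells were not analysed here, so differences between cells and lung combine tumour, culture, sort and tissue make-up.

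Interleukin-1 cytokines are alarm signals of injured or infected tissue. Il1a and Il1b bind the receptor Il1r1, which then recruits the accessory protein Il1rap to signal through MyD88 to NF-kappaB. Il1rn occupies the same receptor without signalling, and Il1f5 does so at the related interleukin-36 receptor, so both are natural antagonists. Il18 acts on lymphocytes, and Il33 is stored in the nuclei of barrier cells, in mouse lung above all alveolar type 2 cells, and is released on damage. Il6 is not a member of the family but a cytokine that interleukin-1 signalling induces in many cells.

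Members lie on several chromosomes. Il1f5 and Il1rn lie close together on chromosome 2, and Il1a and Il1b close together elsewhere on it. In assembly GRCm38.p6 of RefSeq, Il1f5 spans 24276954 to 24282432 and Il1rn spans 24336860 to 24351491 of that chromosome. The 250 bases before a start site are shown for 4 genes, on the gene's own strand. These are Il1f5, on which the list was built, Il6 and Il33, which were higher in cells than in lung, and Il1b, which was lower. Capitals mark matches to a consensus motif for NF-kappaB or AP-1, both known as factors in cytokine promoters.
Il1f5 (chr2:24276704-24276953, plus strand): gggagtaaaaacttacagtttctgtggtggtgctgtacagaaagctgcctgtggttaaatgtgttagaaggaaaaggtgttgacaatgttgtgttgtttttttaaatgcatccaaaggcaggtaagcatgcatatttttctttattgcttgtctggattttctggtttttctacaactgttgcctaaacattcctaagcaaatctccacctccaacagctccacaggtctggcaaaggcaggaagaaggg
Il6 (chr5:30012864-30013113, plus strand): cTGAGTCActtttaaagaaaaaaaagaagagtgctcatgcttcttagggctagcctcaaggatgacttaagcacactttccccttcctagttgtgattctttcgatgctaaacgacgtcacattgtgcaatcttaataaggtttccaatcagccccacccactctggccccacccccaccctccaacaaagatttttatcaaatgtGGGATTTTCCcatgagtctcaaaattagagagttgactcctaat
Il33 (chr19:29924863-29925112, plus strand): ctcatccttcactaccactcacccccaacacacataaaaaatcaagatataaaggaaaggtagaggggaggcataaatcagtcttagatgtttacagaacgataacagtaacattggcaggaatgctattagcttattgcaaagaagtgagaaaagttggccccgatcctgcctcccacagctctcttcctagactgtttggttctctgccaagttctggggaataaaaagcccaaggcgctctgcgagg
Il1b (chr2:129371140-129371389, minus strand): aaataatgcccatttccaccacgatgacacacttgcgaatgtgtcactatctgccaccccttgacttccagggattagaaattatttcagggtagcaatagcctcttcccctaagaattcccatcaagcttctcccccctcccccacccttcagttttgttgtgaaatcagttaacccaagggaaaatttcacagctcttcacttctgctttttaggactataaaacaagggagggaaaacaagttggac
In the Il6 window the AP-1 match TGAGTCA began 249 bases before the start and the NF-kappaB match GGGATTTTCC 44 bases before it. The motifs searched on both strands were TGANTCA for AP-1, CACGTG for the E-box and the NF-kappaB consensus of 10 bases. Over 32851 such windows of all genes, 7.25% held the NF-kappaB motif, 6.75% TGANTCA and 6.02% CACGTG. The windows of Il1f5, Il33 and Il1b held none of these letters. Among the other members, Il1rn had a TGAGTCA 141 bases before 1 of its several starts, and Il1a a TGACTCA 12 bases before its start. Il1r1 had an NF-kappaB match on the opposite strand 232 bases before a second start. These matches are a description of the letters and not of factor binding.

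Intensities are on the linear scale of the deposited values, and differences are log2 differences of intensity plus 16 after quantile normalization, with the standard error (SE) of the limma model. Intensities of different probe sets are not compared. The 40th percentile of an array, the level a probe set had to exceed on 3 compared arrays to be tested, lay between 24.6 and 25.8 in cells and between 30.1 and 33.8 in lung. Summed marker genes of other cell types were lower in the cells, by amounts that differed between types. Fibroblast markers summed to 6546 to 11470 in the cells and 12240 to 17330 in lung. Of 6 measured, 5 exceeded the 40th percentile in all cell samples. The summed intensity of pan-leukocyte markers was 55.6 to 84.7 in the cells and 5416 to 8325 in lung, and that of alveolar type 2 markers 328 to 436 in the cells and 34710 to 51770 in lung. The bacterial control transcript dap, which is added in the laboratory, read 222 to 419 in the cell samples and 0.36 to 6.32 in the lungs. Whatever differed in the handling of the RNA and the origin of the samples cannot be told apart. In 2 lung samples labelled male, replicates 3 and 4, the sex-linked transcripts were against the label, and the differences from lung without them are given as well.

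Il1f5, the interleukin-36 receptor antagonist, was the gene whose difference between antibody-treated and untreated cells chose the list. On its main probe set (1421370_a_at) the untreated cells read 217, 199.9 and 199 and the antibody-treated cells 11.3, 12.5 and 12.7. All 3 treated samples were far below all 3 untreated ones, and all 3 lay under the 40th percentile of their arrays. The 16 lungs lay between, with a lowest value of 31.2, a median of 60.4 and a highest of 77.7. The 3 groups were thus ordered untreated cells (205 ± 9.85, SD, n = 3), lung (56.5 ± 11.5, SD, n = 16) and treated cells (12.2 ± 0.73, SD, n = 3), with no overlap between neighbours. The log2 difference was -3.02 ± 0.12 (SE) for treated minus untreated cells, 1.85 ± 0.14 for untreated cells minus lung and -1.16 ± 0.14 for treated cells minus lung. These values chose the list and carry no test. The size of the first depended on the amount added before the logarithm, with -3.91 for an added 1 and -1.91 for an added 64.

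The second Il1f5 probe set (1426507_at) did not show this pattern. It read 13.4, 23.5 and 28.1 in untreated cells and 18.0, 21.7 and 21.3 in treated cells, and the lungs ran from 14.4 to 35.2 with a median of 23.3. All 3 groups overlapped near background, and the set was not tested in any comparison. The drop of Il1f5 therefore rests on 1 of its 2 probe sets. Over the 6 cell arrays, the probe sets whose log2 values most resembled Il1f5 were those of Tnfrsf9 (Pearson r = 0.99), a receptor of activated lymphocytes, Omg (r = 0.99), a glycoprotein of myelin, and Rorb (r = 0.98), an orphan nuclear receptor. Omg read 204, 229 and 202 in untreated and 0.041, 9.76 and 10.8 in treated cells. The Tnfrsf9 set (1421481_at) moved far less, reading 29.1 to 30.5 in untreated and 25.2 to 26.2 in treated cells. Another Tnfrsf9 set (1460469_at) did not follow Il1f5, with 61.2, 43.8 and 33.3 in untreated and 67.9, 58.1 and 28.9 in treated cells. These genes were ranked by likeness, so the r is a description.

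**Figure D1:**
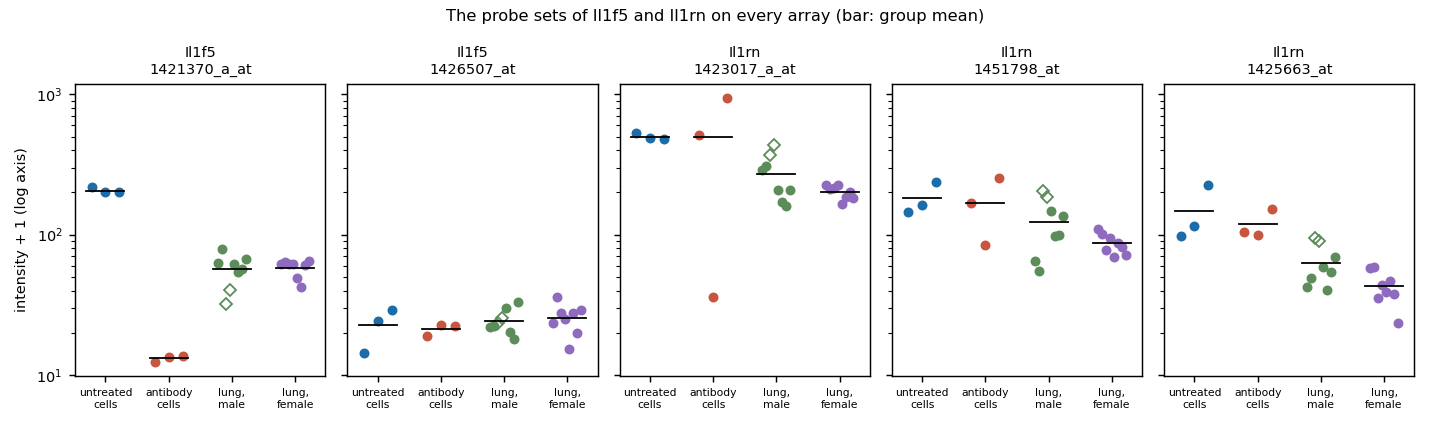
Intensity plus 1 on a log axis for the 2 probe sets of Il1f5 and the 3 of Il1rn on each array, by group, with a bar at the group mean and open diamonds for male-labelled lungs 3 and 4. The first Il1f5 set has a mean of 205 in untreated and 12.2 in treated cells with no overlap while the second overlaps in all groups, and treated sample 2 is low on the first Il1rn set.

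In the antibody comparison none of the other members was called. Of 15 probe sets, 10 passed the filter, from 6 genes, and 0 had an adjusted p under 0.05 (limma, Benjamini-Hochberg over 27499 probe sets). Unadjusted, 0 of the 10 had p under 0.05, against 331 of all probe sets. Over all probe sets 3 were called, which is 0.0109%, among them Omg. The main Il1f5 set was also among them, but it chose the list, so its call is no test. The number called was 5 without untreated sample 1, 9 without untreated sample 2 and 1 without untreated sample 3. That last call was higher in treated cells, so it was neither Omg nor Il1f5, which were lower. The number was 7 without treated sample 2, and 0 of the 10 were called in each case. The median log2 difference of the 10 was -0.08, beside -0.01 for all probe sets. All 10 adjusted p were 0.9999. On all 10 the groups overlapped, but how many of all probe sets overlap was not counted.

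What this comparison could not show differed between members. The tightest interval was that of Il1rap (1421843_at), at 0.06 with a 95% interval from -0.24 to 0.35. Il33 (-0.07, from -0.40 to 0.26) and Il18 (0.14, from -0.18 to 0.45) were nearly as narrow, so these 3 bounds lie under a 1.5-fold change. Il1r1 (0.25, from -0.47 to 0.98) was wider. Il6 (0.37, from -1.24 to 1.99) and the main Il1rn set (-0.77, from -2.71 to 1.17) left room for changes of more than 2-fold in either direction. Il1a and Il1b lay under the 40th percentile in all 6 cell samples and were not tested.

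Against lung, most tested members stood apart. In untreated cells 12 of 15 probe sets were tested, from 8 genes, and 10 were called, meaning an adjusted p under 0.05 (limma) and at least a 2-fold difference. Of these 8 were higher than in lung, all from Il1rn, Il1rap, Il33 and Il6, and 2 lower, from Il1b and Il18. Of all 32533 probe sets tested, 39.8% were called, 20.1% higher and 19.6% lower. In treated cells 12 were tested and 8 called, 6 higher and 2 lower, beside 39.3% of all probe sets, 19.8% higher and 19.6% lower. The median log2 difference of the 12 was 1.19 in untreated and 0.96 in treated cells, beside 0.15 and 0.13 over all probe sets. Il1rn and Il1rap entered these counts and medians with several probe sets each. With 1 probe set per gene, 8 were tested, and 6 were called in untreated and 5 in treated cells. Both comparisons use the same 16 lungs, so their values are given side by side and are not independent of each other. Without normalization the median of all probe sets moved to -0.04 and -0.07. The share of higher among called ones moved from 50.6% to 40.3% and from 50.3% to 40.3%. In each comparison 7 member probe sets were then called. No called member changed its direction under any setting tried. Without lungs 3 and 4, 10 and 8 member probe sets were again called. The differences in untreated and treated cells were then -4.02 and -3.78 for Il1b, 3.99 and 4.36 for Il6, and 1.17 and 1.09 for the Il1rap set 1421844_at. They were 1.32 and 0.55 for the Il1rn set 1423017_a_at, 1.15 and 0.95 for 1451798_at, 1.58 and 1.37 for 1425663_at, -0.65 and -0.40 for Il1r1, and 1.78 and -1.24 for Il1f5, while Il1a did not pass the filter. In bulk samples, fewer cells of a type and less RNA per cell cannot be told apart.

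**Figure D2:**
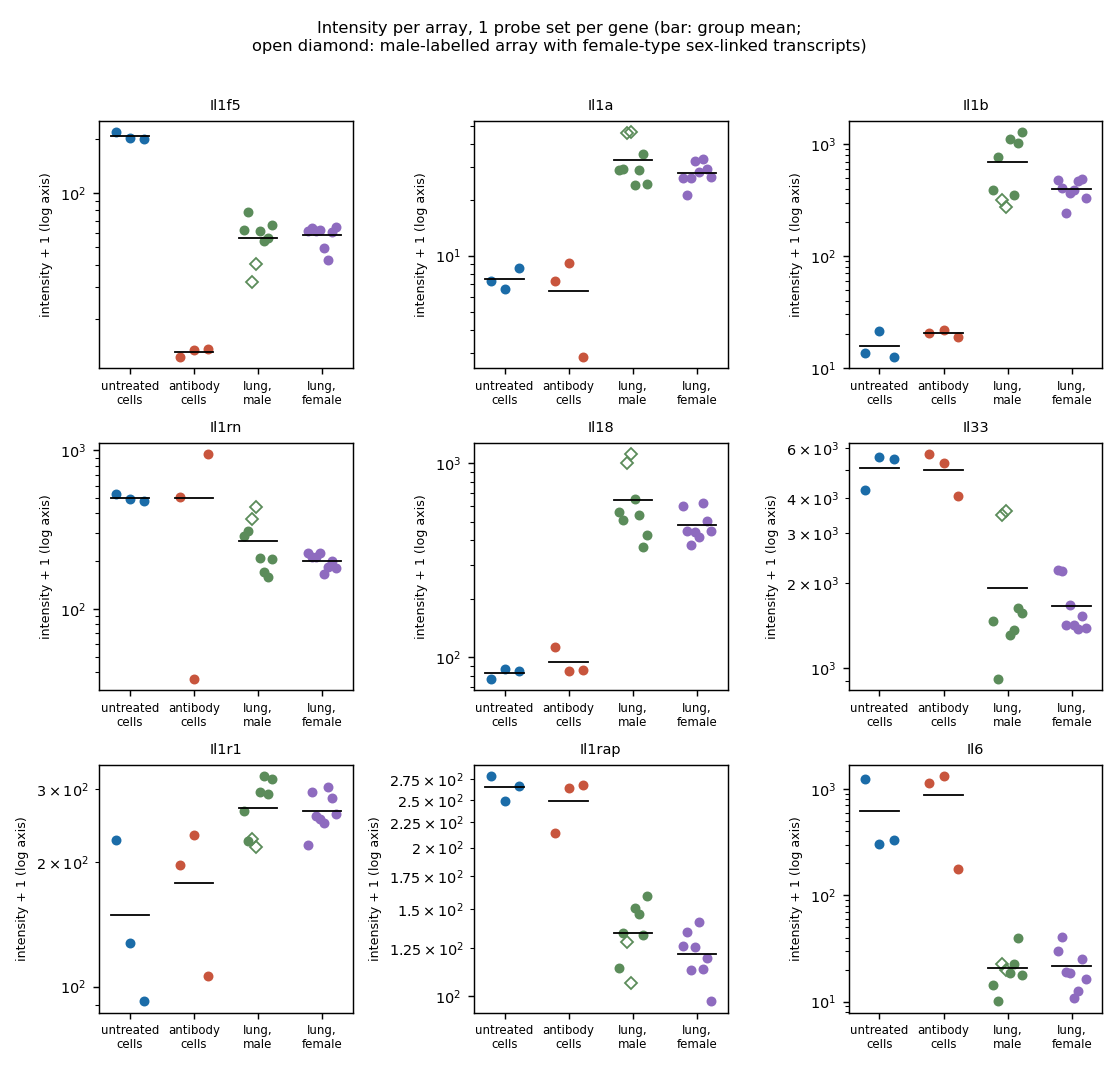
Intensity plus 1 on a log axis for 1 probe set of each of 9 genes on 22 arrays, by group, with a bar at the group mean and open diamonds for male-labelled lungs 3 and 4. Il1b and Il18 are lower in all 6 cell samples than in all lungs, and Il33, Il1rap and Il6 are higher in all 6.

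Of the agonists, Il1b and Il18 were lower in the cells and Il33 was higher. Il1b (1449399_a_at) read 12.5, 20.3 and 11.5 in untreated cells and 19.5, 20.7 and 17.9 in treated cells. The lungs ran from 244 through a median of 398 to 1285, above every cell sample. The difference was -3.87 ± 0.33 in untreated cells (SE; adjusted p = 1.68e-10, limma) and -3.63 ± 0.33 in treated cells (adjusted p = 5.27e-10). Since Il1b was under the filter level in the cells, it was tested through the lung arrays alone. Its difference in untreated cells was -4.70 with 1 added before the logarithm and -2.72 with 64. Leukocytes, a known source of Il1b, were present in lung and nearly absent from the sorted cells by their markers: neutrophil markers summed to 121 to 389 in cells and 3850 to 18700 in lung. Of 9 such markers measured, 1 exceeded the 40th percentile in all 6 cell samples and 7 in all lungs, and in the cells Csf3r was near 0 and S100a9 at most 9.73. The brightest in the cells were S100a8 (52.7 to 255) and, in 4 samples, Mmp9 (70.1 to 100.2). Their part in the difference was not tested.

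Il18 (1417932_at) was measurable in every sample. Untreated cells read 76.0, 85.8 and 83.6 and treated cells 112, 84.3 and 85.2, while the lungs ran from 370 through 507 to 1111. No cell sample reached a lung sample. The difference was -2.23 ± 0.23 (SE; limma adjusted p = 3.69e-09) and -2.10 ± 0.23 (adjusted p = 1.10e-08). Without lungs 3 and 4 it was -2.09 and -1.96. Macrophage markers summed to 509 to 784 in cells and 8484 to 15370 in lung. Of 9 measured, 3 exceeded the 40th percentile in all cell samples and 8 in all lungs, and Marco and Chil3 were near 0 in the cells. Most of the sum in the cells came from Csf1r, at 332.5 to 623, and Msr1 reached 55.8 in treated cells, beside a lung median of 55.8. The part of macrophages was not tested.

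Il33 (1416200_at) was the agonist with higher values in the cells. Untreated cells read 4266, 5590 and 5502 and treated cells 5708, 5309 and 4062, while lungs ran from 913 through 1498 to 3580. Every cell sample was above every lung. The difference was 1.52 ± 0.25 (SE; limma adjusted p = 7.77e-06) and 1.45 ± 0.25 (adjusted p = 1.47e-05), and 1.69 and 1.62 without lungs 3 and 4. Il33 is known from alveolar type 2 cells in mouse lung. The summed markers of these were lower in the tumour cells than in lung, as given above. Of 6 measured, 2 exceeded the 40th percentile in all cell samples. The part of alveolar type 2 cells was not tested.

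Il1a (1421473_at) stayed low. It read 6.3, 5.6 and 7.6 in untreated and 6.3, 8.1 and 1.8 in treated cells, and 20.3 through 27.9 to 45.2 in lung. It exceeded the 40th percentile in 4 lungs and in no cell sample. Its differences, -0.86 ± 0.13 (SE; limma adjusted p = 1.69e-06) and -0.95 ± 0.13 (adjusted p = 3.84e-07), were under 2-fold and so not called. That size depends on the 16 added before the logarithm, since with 1 added the differences were -1.67 and -2.02, and both were called. Without normalization the difference in treated cells was -1.08 and also called.

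The antagonist Il1rn was higher in untreated cells on all 3 of its probe sets, with unequal firmness. The main set (1423017_a_at) read 527, 489.8 and 477 in untreated cells, and 509.8, 35.1 and 945 in treated cells. The lungs ran from 159 through 209 to 437, so the untreated samples were above all lungs and the treated ones lay on both sides. The difference was 1.2 ± 0.45 in untreated cells (SE; adjusted p = 0.0184, limma) and 0.43 ± 0.45 in treated cells (adjusted p = 0.387). Leaving out any untreated sample ended the first call (adjusted p from 0.0519 to 0.0576) with the difference at 1.18 to 1.21. The second became 1.64 (adjusted p = 2.74e-05) without treated sample 2, the sample at 35.1.

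The other Il1rn sets did not show so low a value in treated sample 2. The set 1425663_at read 96.2, 115 and 225 in untreated and 103, 99.0 and 152 in treated cells, beside 22.7 through 47.2 to 93.3 in lung. Its cells were all above all lungs, with differences of 1.49 ± 0.21 (SE; limma adjusted p = 8.99e-07) and 1.27 ± 0.21 (adjusted p = 8.64e-06). The set 1451798_at read 145, 162 and 238 in untreated and 166, 83.9 and 253 in treated cells, beside 53.8 through 95.6 to 204 in lung. These groups overlapped. Its difference was 1.02 ± 0.27 (adjusted p = 0.0016) for untreated cells, which fell under 2-fold at 0.82 without untreated sample 3. For treated cells it was 0.82 ± 0.27 (adjusted p = 0.00875), and 1.16 without treated sample 2. The antibody difference of the main set likewise turned on single samples, with 0.44 without treated sample 2 and -1.58 without treated sample 3.

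Among the receptors, Il1rap was higher in the cells, while Il1r1 differed by less than 2-fold. Il1rap (1421844_at) read 278, 248 and 266 in untreated and 213, 263 and 267 in treated cells, beside 96.6 through 126 to 158 in lung. All cell samples were above all lungs. The difference was 1.19 ± 0.11 (SE; limma adjusted p = 2.69e-10) and 1.10 ± 0.11 (adjusted p = 1.06e-09). Its sets 1449585_at (1.38 and 1.29) and 1421843_at (1.19 and 1.25) were called as well. Each exceeded the 40th percentile in all cell samples but in only 3 lungs, so its lung side was near background. Without normalization, 1421844_at (0.98 and 0.89) and 1421843_at (0.91 and 0.97) were under 2-fold. With 64 added before the logarithm, 1421844_at (0.96 and 0.88), 1449585_at (0.78 and 0.73) and 1421843_at (0.64 and 0.68) were all under 2-fold and not called. A further pair of Il1rap sets, and the second Il1r1 set, lay under the filter level on all 22 arrays and were not tested.

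Il1r1 (1448950_at), the signalling receptor of Il1a and Il1b, read 225, 127 and 91.1 in untreated and 196, 231 and 105 in treated cells. Lungs ran from 217 through 262 to 321, and the highest sample of each cell group lay within that range. The difference was -0.63 ± 0.16 (SE; limma adjusted p = 0.00118) and -0.37 ± 0.16 (adjusted p = 0.0394), both under 2-fold and not called.

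Il6 was far higher in the cells than in lung. Untreated cells read 1240, 306 and 328 and treated cells 1142, 1315 and 176 (1450297_at). Lungs ran from 9.07 through 17.8 to 39.4, so the lowest cell sample was above the highest lung. The difference was 3.98 ± 0.37 (SE; limma adjusted p = 5.99e-10) and 4.35 ± 0.37 (adjusted p = 1.19e-10). Only 2 lungs exceeded the 40th percentile, so Il6 was tested through the cells. With 1 or 64 added before the logarithm the difference was 4.83 and 2.84 in untreated and 5.20 and 3.21 in treated cells.

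**Figure D3:**
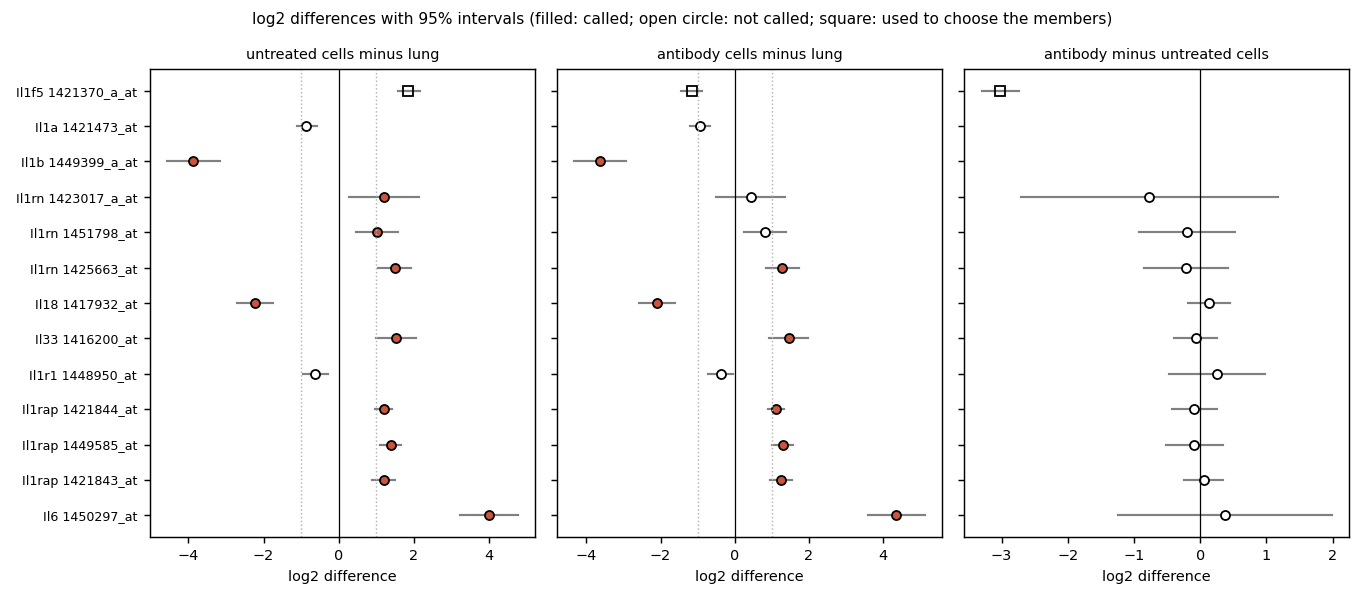
Log2 differences (horizontal axis, with 95% intervals) of each member probe set tested, for untreated cells minus lung, treated cells minus lung, and treated minus untreated cells; filled points were called, and squares mark Il1f5, which chose the list. Il6 lies well above lung (3.98 and 4.35) and Il1b well below (-3.87 and -3.63), both with 1 side near background, and the intervals of the other members tested span 0 in the third panel.

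The spread of Il6 within each cell group was wide, and other genes had high values in the same samples. Untreated sample 1 and treated samples 1 and 2 were high for Il6, and the other three were low. Il1r1 was highest in those same samples, at 225, 196 and 231 against 91.1 to 127 in the others. Ptgs2, the inducible prostaglandin synthase, read 3591, 786 and 1240 in untreated and 2524, 4014 and 633 in treated cells. The neutrophil chemokine Cxcl1 read 4021, 1890 and 1051, then 2763, 2899 and 1300 in the same order, and the monocyte chemokine Ccl2 read 5850, 3012 and 2079, then 4910, 3847 and 2776. The collagenase Mmp13 ran from 21.5 to 451 and the acute-phase gene Saa3 from 424 to 2228, both with the same 3 samples highest. Il33 did not follow, with its lowest values in treated sample 3 and untreated sample 1.

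The genes most like Il6 over these 6 samples were Mlxip, Traf1, Cemip2, Prg4 and Angpt1 (Pearson r from 0.996 to 0.998). Traf1, an adaptor of tumour necrosis factor receptors, read 51.0, 17.5 and 19.3 in untreated and 53.5, 60.9 and 10.8 in treated cells. Prg4, the joint lubricant lubricin, read 525, 161 and 177, then 591, 573 and 87.7. Of 27499 probe sets, 266 had r above 0.95 with Il6 and 177 below -0.95, while for Il1f5 the numbers were 23 and 13. The pattern was seen after the values were known and crosses both groups, so it has no test. Of the neutrophil markers, S100a8 had the same 3 samples highest (255, 245 and 229.6 against 52.7 to 153), and Mmp9 was 70.1 to 100.2 in those and in untreated sample 2, while Csf3r was near 0 in all 6.

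**Figure D4:**
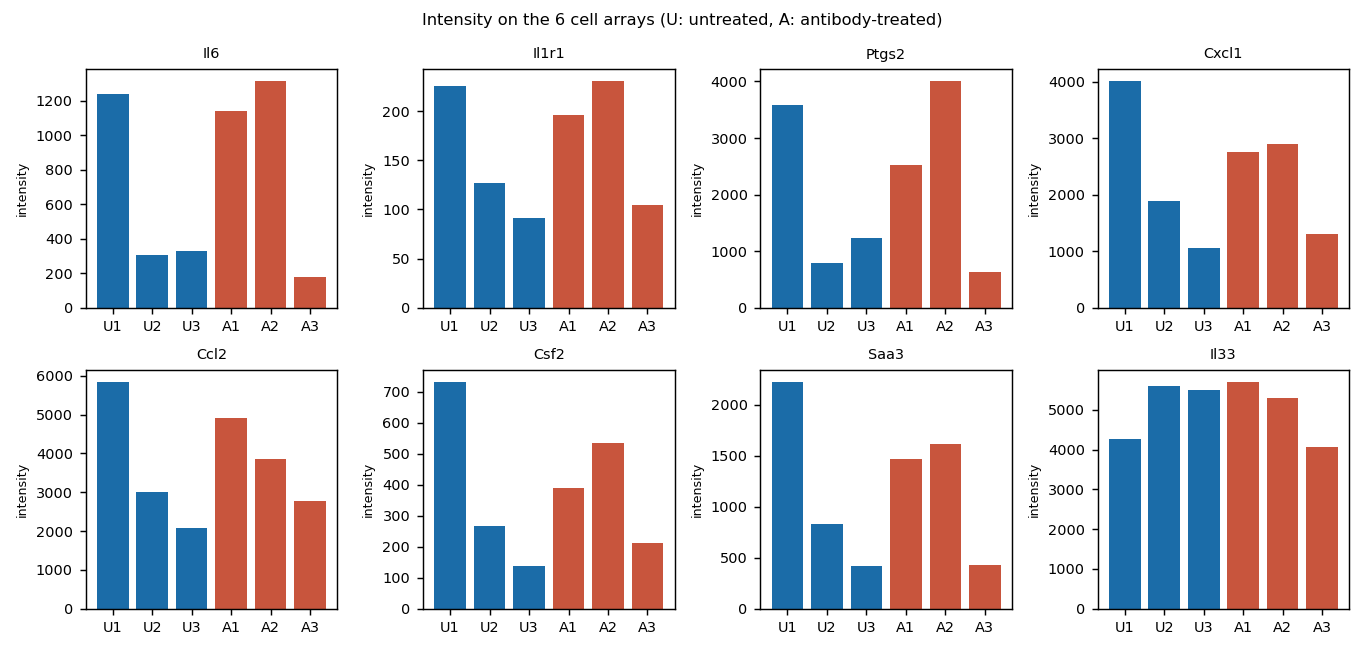
Intensity (linear axis from 0) on the 3 untreated (U1 to U3) and 3 treated (A1 to A3) cell arrays for Il6, Il1r1, 5 interleukin-1-induced genes and Il33. U1, A1 and A2 are highest for Il6 (1142 to 1315) and for the induced genes, whereas Il33 does not follow them.

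Among lungs, Il1b was highest in 4 male-labelled samples. Male lungs 2, 5, 7 and 8 read 773, 1104, 1024 and 1285, the other male-labelled lungs 271 to 388 and the female lungs 244 to 489. The same 4 lungs had the highest neutrophil marker sums, from 13630 to 18700 against 3850 to 8024 in the other lungs. The genes most like Il1b over the 16 lungs were Clec4d (r = 0.97), S100a9 (r = 0.96) and Csf3r (r = 0.96), all known from neutrophils or other myeloid cells, and r was 0.96 to 0.97 without lungs 3 and 4. Il1r2, the decoy receptor of Il1b, was also highest in these lungs, at 198, 575, 199 and 588 against 30.1 to 101.

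Il18 and Il33 had their highest lung values in male-labelled lungs 3 and 4, those with sex-linked transcripts against their label. Il18 read 998 and 1111 there and 370 to 650 in the other 14 lungs. Il33 read 3470 and 3580 there against 913 to 2230. Macrophage marker sums were highest in the same lungs, 15370 and 14720 against 8484 to 12090, as were those of alveolar type 2 markers, 50190 and 51770 against 34710 to 45670. Il18 resembled Cd68, a lysosomal protein of macrophages (r = 0.98), and Ltc4s, the leukotriene C4 synthase (r = 0.95), and without those lungs r was 0.93 and 0.84. Il33 resembled Clip4, Ctps and Atp11a (r from 0.96 to 0.97), and from 0.89 to 0.91 without them. Il1f5 had its lowest lung values there, 31.2 and 39.5.

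**Figure D5:**
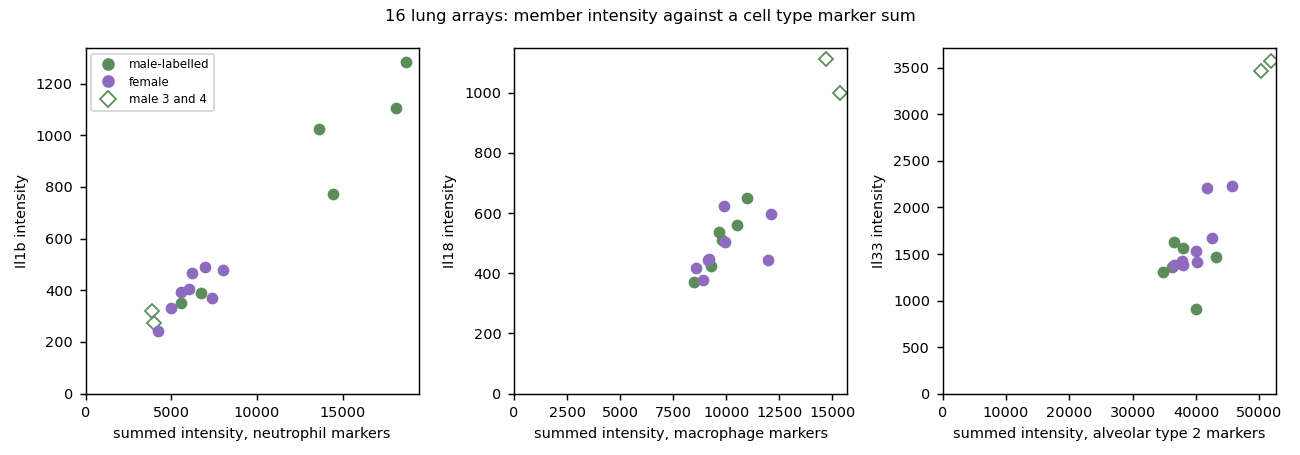
Intensity of Il1b, Il18 and Il33 in the 16 lungs (vertical axes, linear from 0) against the summed intensity of neutrophil, macrophage and alveolar type 2 markers. Male lungs 2, 5, 7 and 8 are highest for Il1b and neutrophil markers, and male-labelled lungs 3 and 4 (open diamonds) are highest in the other panels.

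Female and male lungs did not differ by the test in any member tested, and Il6 did not pass the filter there. All 17 probe sets could enter here, 12 were tested and 0 were called (limma), beside 0.108% of all 29538 probe sets. Unadjusted, 1 of the 12 had p under 0.05 (2974 of all), the Il1rn set 1425663_at with -0.42 ± 0.16 (SE) for female minus male (limma adjusted p = 0.365), and with -0.24 ± 0.13 (adjusted p = 0.62) without lungs 3 and 4. Il1b gave -0.60 ± 0.29 (adjusted p = 0.502), or -0.90 (adjusted p = 0.199) without lungs 3 and 4. The median of the 12 was -0.22, beside 0 over all probe sets. Il1f5 gave 0.03 ± 0.12 (adjusted p = 0.964).

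The genes that act around these cytokines were read on 1 probe set each, from 5 lists. The shares over all probe sets given beside them count every probe set, also several of a gene. With 1 probe set per gene, 43.2% of those called in untreated cells against lung were higher, and the median over all was 0.01. Of other interleukin-1 ligands, receptors and regulators, 9 of 12 measured genes were tested against lung, and 1 was higher and 5 lower in untreated cells, with a median of -1.05. Over all probe sets 20.1% were called higher and 19.6% lower. Il18r1, the binding chain of the interleukin-18 receptor, was among the lower ones, with a mean intensity of 2.43 in untreated cells against 1095 in lung. Of the 5 lower genes, 3 (Il18r1, Il1r2 and Il18bp) passed the filter through the lung arrays, so the sizes of their differences depend on the 16 added. Its partner Il18rap was higher by 1.03 ± 0.18 (adjusted p = 1.80e-05), a call lost without normalization or without untreated sample 1. The decoy receptor Il1r2 (-1.90), the inhibitory receptor Sigirr (-1.61), Il1f9 (-1.16) and the Il18 binding protein Il18bp (-1.05) were lower.

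Of 14 measured inflammasome genes, which process Il1b and Il18, 13 were tested, and 1 was higher and 7 lower in untreated cells, with a median of -1.02, beside 20.1% and 19.6% of all probe sets. With 64 added before the logarithm, 4 were called lower. The adaptor Pycard read 7.37 in untreated cells against 409.5 in lung (mean intensities). Casp1, the protease that cleaves both cytokines, read 3.25 against 199. Of the 7 lower genes, 5 (these, Nlrp3, Naip5 and Mefv) passed the filter through the lung arrays, so the sizes of their differences depend on the 16 added. Nlrp3 (-1.72) and Casp4 (-2.04) were lower too, and the channel gene Panx1 was higher (1.95). These genes are also expressed by lung leukocytes, whose part was not tested.

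Of 19 MyD88 and IRAK pathway genes tested, 2 were higher (Mapk8, 1.65, and Tab1, 1.11) and 3 lower (Peli1, -1.63, Irak3, -1.19, and Map3k3, -1.12), with a median of -0.15, which is not above the 20.1% and 19.6% called over all probe sets in either direction. Of 18 genes of the interleukin-6 family and its signalling, 2 were higher and 6 lower, with a median of -0.29. The total is near the 39.8% called over all probe sets. Of the 6 lower genes, 2 passed the filter through the lung arrays. The cytokines Lif (3.00) and Clcf1 (2.89) were higher. The transducers Stat3 (-2.79), Jak1 (-2.10) and Il6st (-1.86) and the receptor Il6ra (-1.62) were lower.

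Genes known to be induced by interleukin-1 divided in both directions. Of 20 tested, 12 were higher and 3 lower in untreated cells, with a median of 1.48. Over all probe sets 20.1% were called higher and 19.6% lower, and the median was 0.15. The chemokines Ccl2 (6.65 ± 0.26, SE; limma adjusted p = 3.31e-17), Ccl7 (5.80) and Cxcl1 (5.35) were furthest above lung, and Ptgs2 was higher by 2.98. In lung, Ccl2 read 4.93 to 35.6, and the mean was 25.8 for Ccl7 and 37.3 for Cxcl1. The 40th percentile of the lung arrays lay between 30.1 and 33.8. The lung side of these chemokines was thus near background, and the sizes of their differences depend on the amount added before the logarithm. Ccl2 exceeded the 40th percentile on too few lungs to pass the filter there, so it was tested through the cells. How many of the 12 higher genes were tested in that way was not counted. Lcn2 (-4.98), an iron-binding defence protein, the adhesion molecule Icam1 (-4.04) and the chemokine Cxcl5 (-1.61) were lower. Of these 3, 1 passed the filter through the lung arrays. In treated cells the counts of higher and lower genes were 1 and 5 of 9 for the ligands and receptors, 1 and 6 of 12 for the inflammasome, 1 and 2 of 19 for MyD88 signalling, 2 and 6 of 18 for the interleukin-6 family, and 11 and 3 of 19 for induced genes. In the antibody comparison 0 genes of any list were called, and 0 had an unadjusted p under 0.05 (limma). Between female and male lung 0 were called as well, with 4, 4, 4, 2 and 1 genes under an unadjusted p of 0.05 in the same order of lists.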

How the data were processed

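The authors deposited 1 value per probe set and array, an intensity on a linear scale made with PLIER, per the submitters' processing notes. Its version, settings and scaling between arrays are not given in the sources used here. After 64 control sets were left out, 45037 probe sets remained, of which 34945 had 1 gene symbol in the probe table, 932 had several and 9160 were not listed. Values were transformed as log2(intensity + 16) and quantile normalized over all 22 arrays. Each probe set was a feature and had to exceed its array's 40th percentile on 3 or more of the arrays compared. The tests were two-sided, by limma (version 3.58.1, R 4.3.3) with a variance trend in the moderation, and p-values were adjusted by Benjamini-Hochberg over all probe sets tested, at 0.05. The antibody comparison used 6 arrays, cells against the mean of male and female lung used all 22 (the lungs set most of the variance) and also required a 2-fold difference, and the sexes used 16. The number of arrays limits the precision, and p-values measure only the spread between these samples.

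Members and lists were chosen with earlier results of these data known. Named genes are all members, the genes most like Il1f5 over cells and each member over lungs by Pearson r, and the list members furthest from lung; the genes like Il6 over the cells, Il1r2 and the comparison of samples within the cell groups were chosen after their values were seen. In the lists a gene is its brightest probe set, avoiding cross-hybridizing ones. Alternatives were other normalizations, offsets, filters, features, variance models and sets of arrays.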

Additional observations from a re-analysis of the deposited data

How the results depend on the processing

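No result changed its direction where it was called. At an offset of 64, which compresses low values, the member probe sets called against lung fell from 10 to 6 (untreated) and 8 to 4 (treated). With 1 probe set per gene, where 8 were tested, 6 and 5 were called, as there are fewer probe sets to count. Leaving out each cell sample in turn gave 8 to 9 member probe sets called in untreated and 8 to 11 in treated cells. Between treated and untreated cells it gave 0 in every case, Il1f5 aside. The highest of these, 11, was without treated sample 2. With the replicate number as a replicate block, 0 members were called between treated and untreated cells and 0 between female and male lung, as without it; over all probe sets the calls were 3 and 3 for the antibody and went from 32 to 1 for the sexes. Same-numbered samples of the cell groups did not deviate together (r = 0.04, -0.17 and -0.01). Those of male and female lung gave r from -0.08 to 0.24, above 0.1 in 4 of 8 pairs, replicates 5 to 8. The main fits did not pair samples by number, and whether those lungs shared a batch was not tested. Over all probe sets, calls for untreated cells against lung went from 12944 to 7993 at an offset of 64, 6290 with 1 probe set per gene and 26183 without the 2-fold minimum, and for treated cells from 12754 to 7889, 6209 and 25789. The 3 calls of the antibody comparison became 10 with all 22 arrays in the fit, 6 with array weights, 5 at an offset of 64, and 1 to 9 without single cell samples. Those between the sexes ranged from 1 to 118 over the settings, with 58 without male-labelled lungs 3 and 4, an alternative that for single members was chosen after seeing the data. Probe sets near background, among them Il1a, the second Il1f5 set and Il1b in the cells, have no measured order within the cells.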
